A study of Mus musculus with 18 samples.

Results

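The integrated stress response genes described here are 10 named genes, Atf4, Atf5, Atf3, Ddit3, Trib3, Chac1, Gdf15, Sesn2, Asns and Slc7a11, chosen by name as mRNAs of the ATF4 programme. They were 10 of 54532 genes in an expression table of mouse cells and 10 of the 11084 genes expressed highly enough to be tested. A second entry under the name Ddit3 (ENSMUSG00000116429) was listed at 0 in all 18 libraries and was not used. All 10 members passed the filter on low values, a mean of at least 1 FPKM (fragments scaled to transcript length and library depth) over the 18 libraries.

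All libraries came from the mouse line KPCA.B, a model of serous ovarian carcinoma of high grade, and polyadenylated RNA was sequenced. The cells carried a control hairpin (shControl, labelled as wild type for Ndufa5) or hairpin shNdufa5_1 or shNdufa5_2, labelled as knockdowns of Ndufa5, which encodes an accessory subunit of mitochondrial complex I. Each population was grown in a 1:1 mix of fresh medium (high-glucose DMEM, heat-inactivated serum, EGF and an insulin, transferrin and selenium supplement) with medium conditioned by DMF-treated proliferating cells (PCM) or by cells made senescent with cisplatin (SCM), which gave 6 groups of 3 libraries. The design asks how factors released by senescent cells alter transcription in bystander cells, and what Ndufa5 contributes. All groups came from 1 line, the labels do not say whether a hairpin population was a pool or a clone, and neither do they say whether the 3 libraries of a group were separate cultures. The p-values therefore measure only the spread between these libraries, which may be technical.

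The integrated stress response converges on phosphorylation of the translation initiation factor eIF2 by the kinases HRI, PKR, PERK and GCN2, which sense haem or mitochondrial stress, double-stranded RNA, unfolded protein in the endoplasmic reticulum and uncharged tRNA. Phosphorylated eIF2 lowers bulk translation while the mRNAs of ATF4, ATF5 and CHOP (the product of Ddit3) are translated through their upstream open reading frames, so that an mRNA level reports only part of a factor's activity. ATF4 then activates genes for amino acid supply, redox balance, feedback and secreted signals, and blocks of the respiratory chain are among the stimuli known to engage it.

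Depth recovered from the steps of low FPKM values was 13.8 to 38.9 M (mega) fragments per library, and the members received between 217 fragments (the lowest library for Gdf15) and 40753 (the highest for Asns). Over the tested genes, Pearson r between 2 libraries of the same group was 0.979 to 0.9901. The epithelial keratins Krt7, Krt8, Krt18 and Krt19 were high in every library (125 to 966 FPKM), as were Msln (40.7 to 71.9) and Pax8 (7.49 to 15.3), while Wt1 and Muc16 were listed at 0 and Epcam reached only 0.399, so that the label of serous cancer was met by some of its markers only. Of the immune, endothelial and fibroblast markers, Itgam, Cd3e and Thy1 were listed at 0 throughout, and Ptprc stayed at or under 0.00333 and Pecam1 at or under 0.0231. Cd14 (5.34 to 11.2), Cd68 (0.751 to 10.2), Plvap (2.2 to 10.5), Col1a1 (0.948 to 3.42), Dcn (0.673 to 2.97) and Pdgfra (0.512 to 1.78) were present, however. Ndufa5 checked the labels: with shNdufa5_1 its mean was 34.6% of shControl in PCM and 28.1% in SCM. Under the label shNdufa5_2 the mean was 93.4% in PCM, which limma did not call (adjusted p = 0.647, Benjamini-Hochberg over all tested genes), and 73.4% in SCM (again limma, adjusted p = 0.0125, but 0.0657 without shControl replicate 2 and 0.0634 without shNdufa5_2 replicate 1). With libraries scaled by their FPKM sum, Ndufa5 under this label was called lower in PCM (-0.42 in log2, limma, adjusted p = 0.0086). The median of all tested genes was -0.30 there. The SCM call was lost under that scaling (-0.15, adjusted p = 0.336). It was also lost with each library's trend with GC content and length removed (-0.31, adjusted p = 0.0608). The knockdown label was thus not borne out in PCM in the main fit (-0.08, SE 0.12), which does not exclude a small decrease. Libraries with this label are called the libraries labelled shNdufa5_2 below.

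Promoter sequence is shown for the 4 members whose upstream region held a match to TGATGNAA, the core of the composite element bound by C/EBP and ATF4 family dimers at amino acid response genes. RefSeq promoter windows were matched by symbol for all 10 members, and the 250 bases upstream of each start were searched on both strands (TTNCATCA is the reverse complement). The match was present in 4 of 10 members and in 3.45% of 32851 promoter windows of the same length. Capitals mark the match, and each sequence runs 5′ to 3′ on the gene's own strand in GRCm38.p6.
Asns (chr6:7693210-7693459, minus strand): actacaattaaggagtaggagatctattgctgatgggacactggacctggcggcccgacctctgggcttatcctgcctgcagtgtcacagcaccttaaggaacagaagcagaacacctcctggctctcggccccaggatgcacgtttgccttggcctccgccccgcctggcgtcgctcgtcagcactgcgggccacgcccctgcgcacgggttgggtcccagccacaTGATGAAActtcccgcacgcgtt
Slc7a11 (chr3:50443614-50443863, minus strand): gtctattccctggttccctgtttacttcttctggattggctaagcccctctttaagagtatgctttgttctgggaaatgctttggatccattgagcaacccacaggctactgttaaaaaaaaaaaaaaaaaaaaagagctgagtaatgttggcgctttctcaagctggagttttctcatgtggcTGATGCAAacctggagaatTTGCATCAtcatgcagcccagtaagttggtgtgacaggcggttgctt
Chac1 (chr2:119350992-119351241, plus strand): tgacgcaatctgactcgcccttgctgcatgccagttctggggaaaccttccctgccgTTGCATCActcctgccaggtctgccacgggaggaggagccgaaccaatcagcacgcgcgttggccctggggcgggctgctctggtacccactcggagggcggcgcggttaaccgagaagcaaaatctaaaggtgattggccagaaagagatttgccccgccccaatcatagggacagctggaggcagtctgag
Atf3 (chr1:191183334-191183583, minus strand): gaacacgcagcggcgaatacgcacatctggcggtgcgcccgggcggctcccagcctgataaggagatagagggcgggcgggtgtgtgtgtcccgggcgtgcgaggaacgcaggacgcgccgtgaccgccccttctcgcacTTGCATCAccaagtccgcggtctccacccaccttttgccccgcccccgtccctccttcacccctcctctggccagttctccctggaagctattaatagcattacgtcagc

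The match began 23 bases before the start in Asns, 110 before it in Atf3 and 193 before it in Chac1, and Slc7a11 held a pair of matches, at 66 and 47 bases before its start, on opposite strands. A match is a description of the letters only, and its absence from the windows of the other 6 members says nothing of what binds there. The core TGACNNNGC of the antioxidant response element was found in Asns and Sesn2 (10.2% of all windows), and the cAMP response element TGACGTCA in no member (1.55% of all windows). These 4 genes did not share 1 pattern in the values below: with shNdufa5_1 in PCM, Asns, Chac1 and Atf3 fell while Slc7a11 rose.

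FPKM are per length, so levels can be set beside each other. In shControl cells in PCM the most abundant member was Atf4 (361 ± 9.57 FPKM, SD, n = 3), followed by Asns (289 ± 4.68), Trib3 (168 ± 4.93) and Ddit3 (125 ± 4.13). Atf3 (69.6 ± 0.983), Chac1 (67.01 ± 1.36) and Atf5 (57.5 ± 5.27) formed a middle range, and Sesn2 (13.3 ± 1.06), Gdf15 (9.73 ± 1.72) and Slc7a11 (5.92 ± 0.0723) were lowest. Neighbours in this order did not overlap in any library. In SCM the shControl order changed at the top, with Asns (435 ± 11.1) above Atf4 (339 ± 5.87). It also changed in the middle, where Atf5 (71.2 ± 3.005) came before Chac1 (63.1 ± 1.57) and Atf3 (45.4 ± 2.59), and near the bottom, with Gdf15 (25.5 ± 1.32) above Sesn2 (13.8 ± 1.16).

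**Figure D1:**
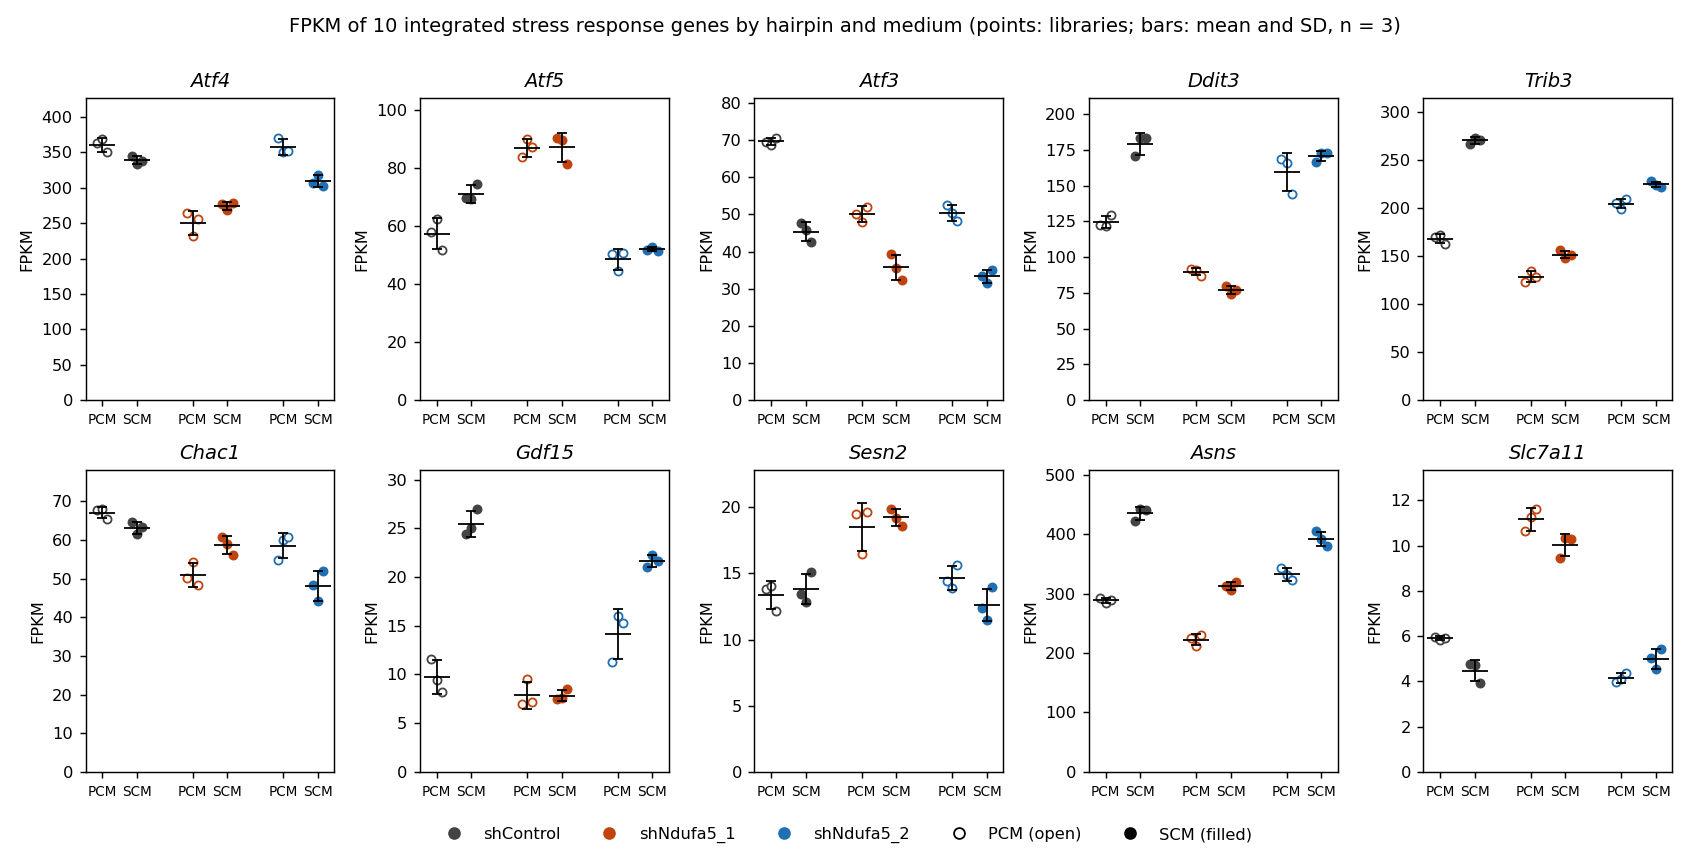
FPKM of each member (vertical axes from 0) in the 6 groups, with open points for libraries in PCM, filled points for SCM, and bars for the mean and SD of 3 libraries. Gdf15 in shControl moved from 8.19 to 11.6 FPKM in PCM to 24.4 to 26.95 in SCM, while all 6 shNdufa5_1 libraries stayed between 6.98 and 9.49.

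The first comparison asked how shControl cells responded to SCM. Gdf15, Trib3, Asns, Ddit3 and Atf5 rose and Atf3 and Slc7a11 fell (the signs of Asns, Ddit3 and Atf5 turned on other scalings, given below), so that 7 of 10 members were called, against 61.9% of all tested genes (31.7% up and 30.2% down). Libraries in the 2 media did not overlap for 9 of the 10 members, against 66.1% of all tested genes. The median difference of the 10 members was 0.18 in log2(FPKM + 1), against 0.00 over all tested genes. In bulk RNA, fewer cells with a transcript and less transcript per cell cannot be told apart, here and in every comparison below.

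Among the transcription factors, Atf4 mRNA, the source of the central activator, was 363, 369 and 350.0 FPKM in PCM and 346, 334 and 338 in SCM. The libraries did not overlap, but the difference of -0.09 did not pass (95% interval -0.18 to 0.00, adjusted p = 0.0778). On other scales Atf4 was called lower in SCM, at -0.34 on fragment totals, -0.39 with the GC and length trend removed, -0.70 under the FPKM sum and -0.73 under quantile normalization (adjusted p of 4.18e-06 or less). Atf5, whose product induces mitochondrial chaperones and proteases, measured 58.2, 62.4 and 51.9 in PCM and 69.6, 69.3 and 74.7 in SCM, a rise of 0.31 (SE 0.06, adjusted p = 0.000688). Atf3, which encodes a stress-induced repressor, was 69.6, 68.7 and 70.7 in PCM and 47.8, 45.7 and 42.6 in SCM, a difference of -0.61 (SE 0.06, adjusted p = 4.42e-07), with every SCM library below every PCM library. Ddit3, which encodes the pro-apoptotic factor CHOP, was 123, 122 and 129 in PCM and 170.4, 183 and 184 in SCM, a rise of 0.52 (SE 0.05, adjusted p = 4.32e-07). Atf3 and Ddit3, both targets of ATF4, thus changed in opposite directions in the same libraries, but Ddit3 was not called under quantile normalization (0.042, adjusted p = 0.447) or the FPKM sum (-0.088).

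Trib3, the pseudokinase that restrains ATF4 and AKT, measured 170.5, 172 and 163 FPKM in PCM and 267, 274 and 272 in SCM, a rise of 0.68 (SE 0.03, adjusted p = 1.72e-10). Chac1, a glutathione-degrading enzyme, measured 67.7, 67.9 and 65.5 and 64.6, 61.5 and 63.4, a difference of -0.08 that did not pass (95% interval -0.21 to 0.04, adjusted p = 0.209). Chac1 too was called lower under those 4 scalings (-0.33, -0.50, -0.69 and -0.39). Gdf15, a secreted cytokine of the TGF-beta superfamily and a marker of mitochondrial stress, showed the largest difference of the 10. Its libraries were 11.6, 9.43 and 8.19 in PCM and 24.4, 25.02 and 26.9 in SCM, so that the mean in SCM was 2.62 times that in PCM (1.31 in log2, SE 0.13, adjusted p = 3.86e-07). Sesn2, a leucine sensor upstream of mTORC1, overlapped between the media with 13.8, 14.1 and 12.1 in PCM and 13.5, 12.9 and 15.1 in SCM (95% interval -0.13 to 0.22, adjusted p = 0.651).

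The amino acid genes diverged in shControl cells. Asns, which makes asparagine, rose from 293, 284 and 289 FPKM to 422, 442 and 441 (0.59, SE 0.04, adjusted p = 1.34e-09). Slc7a11, the cystine importer that feeds glutathione synthesis, was 5.98, 5.84 and 5.93 in PCM and 4.75, 4.74 and 3.94 in SCM, a difference of -0.34 (SE 0.07, adjusted p = 0.000446).

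How libraries are scaled changed this picture. The split of 5 risen and 2 fallen members became 4 and 4 on the scale of recovered fragment totals and also with each library's trend with GC content and length removed, 2 and 5 under quantile normalization and 1 and 6 under scaling by the FPKM sum. Of all 11084 tested genes, 488 rose and 7805 fell under the FPKM sum, 2963 and 3480 under quantile normalization and 1939 and 5411 on fragment totals. With the trend removed 2860 of 11074 genes rose and 2721 fell. Gdf15 rose and Atf3 fell under all of these scalings. The rise of Asns was -0.12 under quantile normalization and -0.019 under the FPKM sum, that of Ddit3 was -0.088 under the latter, and that of Trib3 was 0.074 there (adjusted p = 0.306). The rise of Atf5 was -0.13 without the trend, and Slc7a11 was not called without it (adjusted p = 0.993). The short RNA Gm23935 made up 5.13 to 8.75% of the FPKM sum in shControl in PCM and 16.3 to 21.8% in SCM, and its part in the shift of that sum was not tested. Scaling by the sum shifted the median of all tested genes by -0.50, relative to which Asns was 0.48, Ddit3 0.41 and Trib3 0.57 higher. Across 11074 genes, which are not independent replicates, the difference between the media moved with GC content at a Spearman rho of 0.527. Beside these differences, the summed level of 11 epithelial or ovarian cancer markers (6 of them at a mean of 1 FPKM or more) was 1050 to 1120 FPKM in PCM and 1620 to 1730 in SCM. The sum of 9 immune markers was 8.21 to 9.05 and 12 to 14.5, that of 6 endothelial markers 3.56 to 4.49 and 5.67 to 8.51, and that of 8 fibroblast markers 3.42 to 4.07 and 5.18 to 6.2. The part of these markers in the result was not tested.

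**Figure D2:**
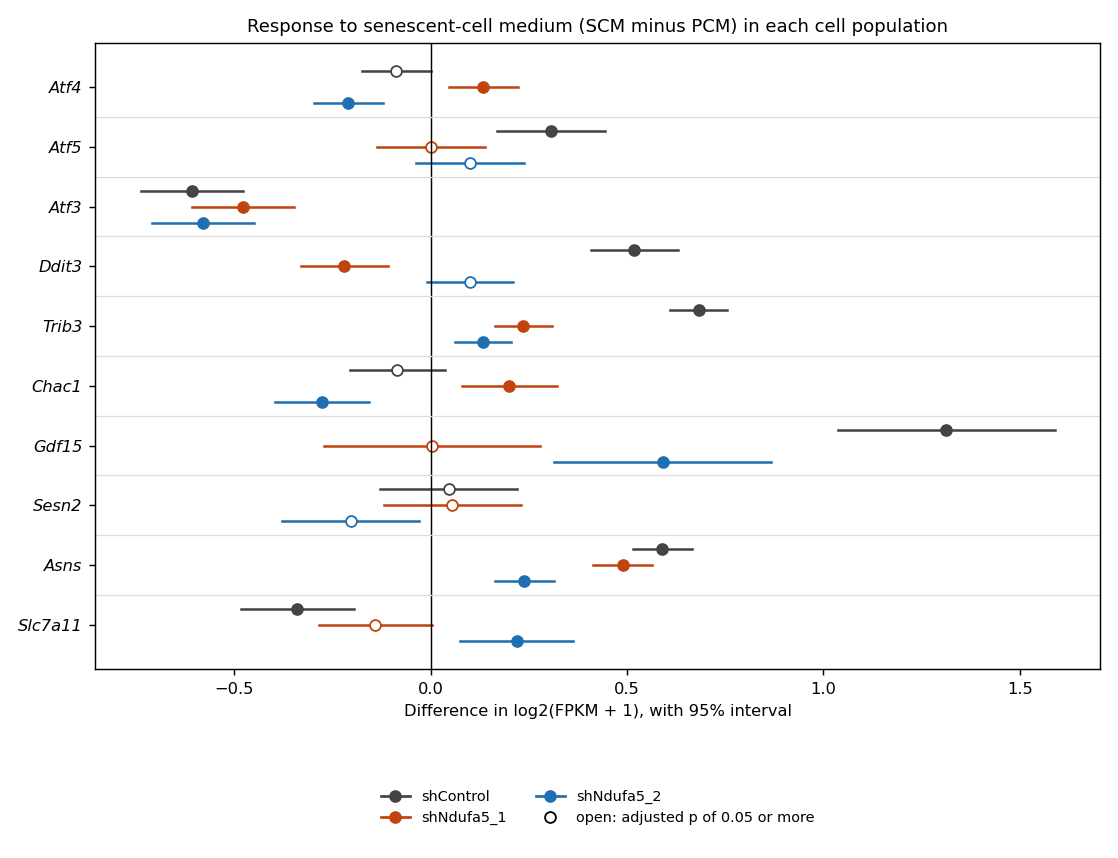
Difference in log2(FPKM + 1) between SCM and PCM for each member (rows) in the 3 populations (colours), with the 95% interval as a line and open symbols where the adjusted p was 0.05 or more. Atf3 lay at -0.61, -0.48 and -0.58, while Gdf15 spread from 0.00 with shNdufa5_1 to 1.31 in shControl.

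The same medium was next compared in the hairpin populations. With shNdufa5_1, Atf4, Trib3, Chac1 and Asns rose and Atf3 and Ddit3 fell, where 42.3% of tested genes were called (22.5% up and 19.8% down), but only Asns (0.49) of the 4 rises was called under every setting tried. In the libraries labelled shNdufa5_2, Trib3, Gdf15, Asns and Slc7a11 rose and Atf3, Atf4 and Chac1 fell, 7 of 10 against 22.8% of tested genes (11.7% up and 11.1% down). Libraries of the 2 media did not overlap for 7 members with shNdufa5_1, against 52.2% of tested genes, and for 8 under the label shNdufa5_2, against 37.8%. The medians of the members were 0.03 and 0.10, and those of all tested genes 0.02 and -0.00.

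Ddit3 fell with shNdufa5_1, from 91.7, 91.2 and 87.1 FPKM in PCM to 80.1, 74.3 and 76.98 in SCM (-0.22, SE 0.05, adjusted p = 0.00308), without overlap between the libraries. Under the label shNdufa5_2, Ddit3 was 169, 166 and 144 and 167, 173 and 173, which overlapped (0.10, adjusted p = 0.185). Tested as a difference of responses from shControl, Ddit3 differed by -0.74 with shNdufa5_1 (SE 0.07, adjusted p = 2.95e-06) and by -0.42 in the libraries labelled shNdufa5_2 (SE 0.07, adjusted p = 0.000295). The second difference was -0.0093 under quantile normalization (adjusted p = 0.925) and 0.23 under the FPKM sum, where the first was -0.19 (adjusted p = 0.119). For this difference of responses, the members called were 4 lower and 2 higher with shNdufa5_1, where 26.2% of tested genes were called (15.5% lower and 10.7% higher), and 4 lower and 1 higher in the libraries labelled shNdufa5_2, where 43% were (24.1% lower and 18.9% higher).

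No rise of Gdf15 was called with shNdufa5_1. Its libraries were 6.97, 9.48 and 7.14 FPKM in PCM and 7.45, 7.55 and 8.49 in SCM, with overlap (difference 0.00, 95% interval -0.27 to 0.28), and the response was -1.31 against that of shControl (SE 0.18, adjusted p = 7.88e-05), a difference called in all 21 other settings. Gdf15 under the label shNdufa5_2 rose from 11.2, 15.98 and 15.3 to 21.01, 22.2 and 21.7 (0.59, adjusted p = 0.00414), a response -0.72 relative to that of shControl (adjusted p = 0.00501), which was not called with the GC and length trend removed (-0.32, adjusted p = 0.181).

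Trib3, which rose in both hairpin populations, went from 123, 135 and 129 to 156, 148 and 151 FPKM with shNdufa5_1 (0.24, adjusted p = 6.25e-05) and from 206, 199.8 and 209.6 to 228, 224 and 223 in the libraries labelled shNdufa5_2 (0.13, adjusted p = 0.0105, or 0.0501 without PCM replicate 2). Its response differed from that of shControl by -0.45 (adjusted p = 6.86e-06) and -0.55 (adjusted p = 5.22e-07), but these differences turned to 0.11 and 0.10 under the FPKM sum, whose shift of the median gene was 0.46 and 0.52, and were not called under quantile normalization (-0.048 and -0.098).

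Asns rose from 225, 213 and 230.2 to 313, 305 and 319.9 FPKM with shNdufa5_1 (0.49, adjusted p = 1.23e-07). Under the label shNdufa5_2, Asns rose from 344, 331 and 322 to 405, 391 and 380.5 (0.24, adjusted p = 0.000213). The response of Asns did not differ from that of shControl by a called amount with shNdufa5_1 (-0.10, 95% interval -0.21 to 0.00, though called at -0.13 without shNdufa5_1 PCM replicate 2), and it differed by -0.35 in the libraries labelled shNdufa5_2 (adjusted p = 4.79e-05). That last value turned to 0.18 under quantile normalization and 0.30 under the FPKM sum.

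Slc7a11 went from 10.6, 11.3 and 11.6 to 9.47, 10.4 and 10.3 FPKM with shNdufa5_1 (-0.14, 95% interval -0.29 to 0.00), which did not pass. Slc7a11 under the label shNdufa5_2 rose, from 3.97, 4.09 and 4.39 to 5.02, 4.56 and 5.44 (0.22, adjusted p = 0.0292). That rise was not called without any 1 of 4 libraries, the adjusted p being 0.0998 without PCM replicate 1, 0.0774 without PCM replicate 2, 0.0693 without SCM replicate 1 and 0.125 without SCM replicate 3. Its response exceeded that of shControl by 0.56 (adjusted p = 0.000251), and by 0.13 (adjusted p = 0.393) with the GC and length trend removed.

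Atf4 and Chac1 had opposite signs in the hairpin populations. Atf4 went from 264, 232 and 256 to 277, 268 and 278 FPKM with shNdufa5_1 (0.13, adjusted p = 0.0164) and from 371, 351 and 352 to 307, 318 and 303 in the libraries labelled shNdufa5_2 (-0.21, adjusted p = 0.00198). The first of these was 0.079 without PCM replicate 2 (adjusted p = 0.0808), missed the threshold without SCM replicate 1 (0.0529) or 3 (0.0517), and was -0.11 under quantile normalization. Chac1 went from 50.2, 54.4 and 48.2 to 60.6, 59.03 and 56.2 with shNdufa5_1 (0.20, adjusted p = 0.0103, or 0.0528 without PCM replicate 3). Under the label shNdufa5_2, Chac1 went from 54.9, 59.98 and 60.7 to 48.4, 44.2 and 51.98 (-0.28, adjusted p = 0.00262). With shNdufa5_1 the responses exceeded those of shControl by 0.22 for Atf4 (adjusted p = 0.0108) and 0.28 for Chac1 (adjusted p = 0.0156), and both stayed called in all 21 other settings.

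Atf3 fell in SCM in both hairpin populations, from 50.2, 47.9 and 52.03 to 39.2, 35.5 and 32.5 FPKM with shNdufa5_1 (-0.48, adjusted p = 2.01e-05) and from 52.4, 50.3 and 48.2 to 33.4, 31.6 and 35.02 in the libraries labelled shNdufa5_2 (-0.58, adjusted p = 1.1e-05). These falls were called under every setting, and the responses were not called different from that of shControl (95% intervals of the difference -0.05 to 0.31 and -0.15 to 0.21). Under each of the 4 other scalings both differences of response were called. Removing the GC and length trend gave 0.24 (adjusted p = 0.0409) and 0.28 (adjusted p = 0.0175). Atf5 overlapped between media with shNdufa5_1 (83.9, 90.01 and 87.4 in PCM and 90.6, 89.8 and 81.3 in SCM). It differed by 0.10 in the libraries labelled shNdufa5_2 (50.4, 44.4 and 50.96 and 51.9, 52.8 and 51.5), which did not pass (adjusted p = 0.291). Its response with shNdufa5_1 was -0.31 relative to that of shControl (adjusted p = 0.0213), but the adjusted p was 0.0534 without shControl PCM replicate 3, 0.0525 without shControl SCM replicate 3 and 0.0604 without shNdufa5_1 SCM replicate 3. Under none of the 4 other scalings was it called lower (-0.11 on fragment totals, 0.24 under the FPKM sum). Sesn2 overlapped between media in both populations (19.5, 16.4 and 19.7 and 19.9, 19.2 and 18.6 with shNdufa5_1, 14.4, 13.9 and 15.6 and 12.4, 11.5 and 13.9 in those labelled shNdufa5_2). The latter difference (-0.20, adjusted p = 0.0882) was called without SCM replicate 3 (-0.27, adjusted p = 0.0385). It was also called on fragment totals (-0.26, adjusted p = 0.0323) and with a replicate block and the GC and length trend removed (-0.21, adjusted p = 0.0392).

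Other scalings changed the counts of these comparisons too. With shNdufa5_1 the 4 risen and 2 fallen members were 1 and 3 under quantile normalization and with the GC and length trend removed, 2 and 2 under the FPKM sum and 3 and 3 on fragment totals. Of all tested genes, 2247 rose and 2381 fell, 1659 and 1593, 1211 and 1949, and 1994 and 2690 in that order. For the libraries labelled shNdufa5_2 the 4 and 3 were 2 and 3 under quantile normalization, 1 and 1 under the FPKM sum and 2 and 4 on fragment totals. Of all tested genes, 1199 rose and 1206 fell, 694 and 231, and 894 and 2027 in that order. In the latter libraries Atf4 (-0.17), Chac1 (-0.24), Asns (0.28), Trib3 and Slc7a11 were not called under the FPKM sum, nor were Asns (0.068) and Trib3 (0.035) under quantile normalization. The differences of responses, 2 higher and 4 lower with shNdufa5_1 and 1 higher and 4 lower under the label shNdufa5_2, were 4 and 2 and 4 and 1 under quantile normalization, 6 and 1 and 6 and 0 under the FPKM sum, 4 and 3 and 2 and 4 on fragment totals, and 3 and 4 and 2 and 3 with the trend removed. With shNdufa5_1, 1424 of all tested genes were higher and 988 lower under quantile normalization, and 6986 and 86 under the FPKM sum. They were 3317 and 770 on fragment totals and 1154 and 1557 with the trend removed. Under the label shNdufa5_2 these numbers were 2246 and 1729, 7337 and 93, 3551 and 1413, and 1209 and 1742.

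The hairpins were then compared with shControl within each medium, to ask what a lower level of Ndufa5 goes with. With shNdufa5_1 in PCM, Atf4, Atf3, Ddit3, Trib3, Chac1 and Asns fell and Slc7a11, Atf5 and Sesn2 rose, 9 of 10 members against 52.7% of tested genes (27.1% down and 25.6% up). Libraries did not overlap for 9 members, against 59.8% of tested genes. Each of these 9 calls was called in all 15 other settings, and the split of 3 and 6 became 3 and 7 under the FPKM sum, without shControl replicate 3 and without shNdufa5_1 replicate 2, where Gdf15 was called as well. Under the FPKM sum 1405 of 11084 tested genes rose and 3674 fell. In SCM, Ddit3, Gdf15, Trib3, Asns, Atf4 and Atf3 fell and Slc7a11, Sesn2 and Atf5 rose, again 9 of 10 against 59.8% of tested genes (31.1% down and 28.7% up). The falls of Asns, Atf4 and Atf3 turned in direction under 1 or more scalings, and the split of 3 risen and 6 fallen became 4 and 4 with the GC and length trend removed, 6 and 4 under quantile normalization and 4 and 3 under the FPKM sum. Of all tested genes, 2978 rose and 3164 fell with the trend removed, 3341 and 2989 under quantile normalization and 6351 and 998 under the FPKM sum. Libraries did not overlap for any of the 10 members, against 65.1% of tested genes. The member medians were -0.38 in PCM and -0.32 in SCM, those of all tested genes -0.01 and -0.00. The summed epithelial markers were 1690 to 1740 FPKM with shNdufa5_1 in PCM and 2000 to 2060 in SCM, against the shControl ranges above. The endothelial sum was 2.25 to 2.7 and 4.38 to 5.78, the fibroblast sum 2.35 to 3.67 and 3.87 to 4.37, and the immune sum 9.93 to 12 and 11.6 to 12.2. Over 11074 genes the difference moved with GC content at a rho of -0.23 in PCM and -0.36 in SCM. The part of these markers in the result was not tested.

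Atf4 mRNA averaged 250.4 ± 16.7 FPKM with shNdufa5_1 against 361 ± 9.57 in shControl in PCM (-0.53, SE 0.04, adjusted p = 4.73e-08) and 274 ± 5.56 against 339 ± 5.87 in SCM (-0.30, adjusted p = 1.08e-05). The SCM value turned to 0.20 under quantile normalization and 0.12 under the FPKM sum, and was not called without the GC and length trend (-0.037). Atf5 went the other way, with 87.1 ± 3.06 against 57.5 ± 5.27 in PCM (0.59, adjusted p = 1.54e-06) and 87.2 ± 5.11 against 71.2 ± 3.005 in SCM (0.29, adjusted p = 0.00114), and all 6 shNdufa5_1 libraries lay above all 6 shControl libraries. Atf3 differed by -0.47 in PCM (adjusted p = 9.69e-06) and -0.34 in SCM (adjusted p = 0.000177), the latter 0.073 under the FPKM sum and not called with the GC and length trend removed (adjusted p = 0.145).

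Ddit3 averaged 89.98 ± 2.51 FPKM with shNdufa5_1 and 125 ± 4.13 in shControl in PCM (-0.47, SE 0.05, adjusted p = 2.02e-06). In SCM the averages were 77.1 ± 2.93 and 179 ± 7.49, so that shNdufa5_1 held 0.431 times the shControl level (-1.20, SE 0.05, adjusted p = 2.91e-11). Trib3 differed by -0.38 in PCM (adjusted p = 1.75e-07) and -0.83 in SCM (adjusted p = 1.75e-11). Chac1, called in PCM (-0.39, adjusted p = 3.05e-05), missed the threshold in SCM (-0.11, 95% interval -0.23 to 0.01) although its libraries did not overlap, and was higher with shNdufa5_1 there under quantile normalization (0.16), the FPKM sum (0.31) and with the GC and length trend removed (0.25).

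Gdf15 with shNdufa5_1 overlapped shControl in PCM (-0.27, 95% interval -0.55 to 0.00), and was called there without shControl replicate 3 (-0.38) or shNdufa5_1 replicate 2 (-0.40). In SCM it was 0.308 times the shControl mean (-1.58, SE 0.13, adjusted p = 4.35e-08), with no shNdufa5_1 library above 8.49 and no shControl library below 24.4 FPKM. Sesn2 was higher with shNdufa5_1 by 0.44 in PCM (adjusted p = 0.000306) and 0.45 in SCM (adjusted p = 0.000196). Asns differed by -0.37 in PCM (adjusted p = 3.49e-07) and -0.47 in SCM (adjusted p = 1.42e-08), the latter turning to 0.14 under quantile normalization and not called under the FPKM sum (-0.053). Slc7a11 averaged 11.2 ± 0.4996 against 5.92 ± 0.0723 in PCM, 1.89 times the shControl level (0.81, adjusted p = 8.72e-08), and 10.04 ± 0.495 against 4.48 ± 0.462 in SCM, 2.24 times (1.01, adjusted p = 4.31e-09).

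The libraries labelled shNdufa5_2, in which mean Ndufa5 was near the shControl level in PCM on the main scale, gave other values against the same shControl libraries. In PCM, Gdf15 (0.50), Ddit3 (0.35), Trib3 (0.28) and Asns (0.20) were higher and Atf3 (-0.46), Slc7a11 (-0.43), Atf5 (-0.24) and Chac1 (-0.19) lower, with adjusted p from 1.6e-05 (Trib3) to 0.0146 (Chac1), 8 of 10 against 35.6% of tested genes (19.3% up and 16.3% down). Libraries did not overlap for 7 members, against 49.8% of tested genes. Under the FPKM sum, which turned the signs of Ddit3, Trib3 and Asns, the split of 4 and 4 became 0 and 5, under quantile normalization 2 and 5, and with the GC and length trend removed 3 and 4. Of all tested genes, 139 rose and 6318 fell, 1649 and 1940, and 1616 and 1266 in that order. Atf5 missed the threshold without shControl replicate 2 (adjusted p = 0.0529) or shNdufa5_2 replicate 2 (0.054), and Chac1 without shNdufa5_2 replicate 1 (0.0753). Without the GC and length trend, Slc7a11 (-0.20, adjusted p = 0.0599) and Gdf15 (0.31, 0.0773) were not called, nor was Trib3 under quantile normalization (0.063) or Gdf15 under the FPKM sum (0.17). Atf4 (-0.01, 95% interval -0.10 to 0.08) and Sesn2 (0.13, -0.05 to 0.30) were not called, but Atf4 was called lower under the FPKM sum (-0.37), quantile normalization (-0.33) and without the GC and length trend (-0.15, adjusted p = 0.0119).

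In SCM, Atf5 (-0.44), Atf3 (-0.43), Chac1 (-0.39), Trib3 (-0.27), Asns (-0.15) and Atf4 (-0.13) were lower in the libraries labelled shNdufa5_2, with adjusted p from 3.23e-05 (Trib3) to 0.0213 (Atf4), and no member was higher, where 33.9% of tested genes were called (20% down and 13.9% up). Libraries did not overlap for 7 members, against 43.2% of tested genes. This split of 0 and 6 was 0 and 3 under quantile normalization, 2 and 0 under the FPKM sum (where Atf4, Trib3 and Asns turned in sign), 1 and 4 on fragment totals and 0 and 5 with the trend removed. Of all tested genes, 1750 rose and 1273 fell, 4750 and 184, 2707 and 1266, and 1159 and 1529 in that order. Atf4 was not called without shControl replicate 1 (adjusted p = 0.0699), or shNdufa5_2 replicate 1 (0.0587) or 3 (0.0743). Under the FPKM sum Atf3 (-0.15), Atf5 (-0.15) and Chac1 (-0.096) were not called either, nor was Trib3 under quantile normalization (-0.035). Ddit3, Gdf15, Sesn2 and Slc7a11 were not called (-0.07, -0.23, -0.12 and 0.13). Over 11074 genes the difference from shControl moved with GC content at a rho of 0.456 in PCM and -0.413 in SCM. The summed epithelial markers were 1200 to 1220 FPKM in PCM and 1200 to 1270 in SCM, and the immune sum 12 to 15.1 and 13.5 to 16.2. The endothelial sum was 6.9 to 7.4 and 8.03 to 10.5, and the fibroblast sum 4.66 to 5.45 and 6.6 to 7.97. Their part in the result was not tested.

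**Figure D3:**
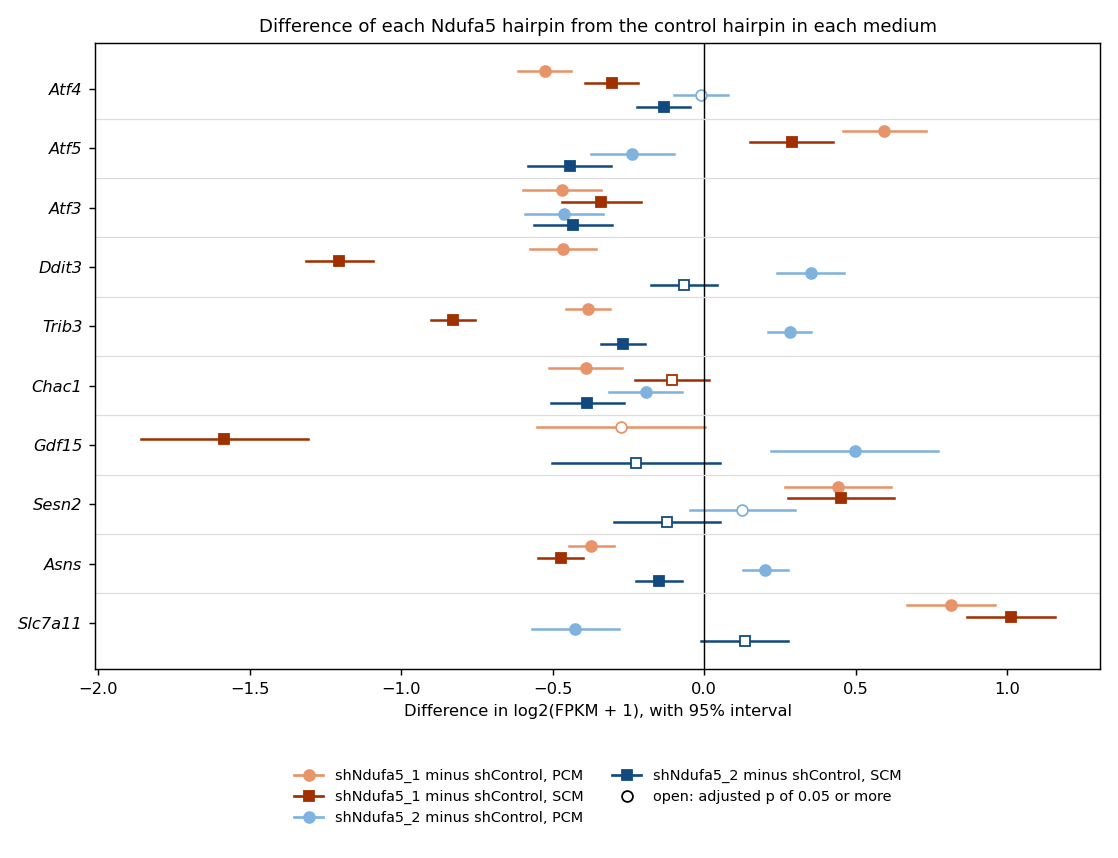
Difference in log2(FPKM + 1) of each hairpin from shControl for each member (rows), in PCM (circles) and SCM (squares), with 95% intervals and open symbols where the adjusted p was 0.05 or more. Atf3 lay between -0.47 and -0.34 in all 4 comparisons (in SCM 0.07 with shNdufa5_1 under scaling by the FPKM sum), whereas Slc7a11 was 0.81 and 1.01 for the first hairpin and -0.43 and 0.13 under the label shNdufa5_2.

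Since the hairpins differed in the level of Ndufa5, they were also compared with each other, which leaves the shared control out. This comparison was added after values had been seen, and its member values are not given under other scalings or without single libraries. Under the FPKM sum 4618 of 11084 tested genes were higher with shNdufa5_1 and 1797 lower in PCM, against 3313 and 3654 in the main fit. In SCM the numbers were 3484 and 1653, against 2942 and 3029. In PCM, 9 of 10 members differed, 3 higher and 6 lower with shNdufa5_1, against 62.9% of tested genes (29.9% and 33%), and in SCM 9 differed, 4 higher and 5 lower, against 53.9% (26.5% and 27.3%). Libraries did not overlap for 9 members in PCM and 9 in SCM, against 65.9% and 61.7% of tested genes. Slc7a11 was 1.24 higher in PCM (adjusted p = 4.57e-10) and 0.88 higher in SCM, and Atf5 0.83 and 0.73 higher. Ddit3 differed by -0.82 in PCM and -1.14 in SCM (adjusted p = 1e-10), and Gdf15 by -0.77 and -1.36. Chac1 was -0.20 in PCM and 0.28 in SCM. Atf3 alone was called in neither medium (-0.01, 95% interval -0.14 to 0.12, and 0.09, -0.04 to 0.22).

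Upstream of the members, the kinases and phosphatases of eIF2 were counted as a list of 8 that also held Impact, which is neither. In shControl in SCM 5 of 8 fell, among them Impact (-0.69), and 1 rose, against 30.2% and 31.7% of all tested genes, with a median of -0.39. The median stayed below 0 under every scaling tried. For quantile normalization it was -0.36, with 0 risen and 4 fallen, where 2963 of 11084 tested genes rose and 3480 fell. Ppp1r15a, which encodes the stress-induced GADD34 that directs dephosphorylation of eIF2, fell from 182 ± 2.76 to 126 ± 1.63 FPKM (-0.52, adjusted p = 1.29e-10), and Ppp1r15b, its constitutive counterpart, fell from 22.1 ± 0.908 to 14.3 ± 0.602 (-0.59). The HRI gene Eif2ak1 differed by -0.42 (adjusted p = 3.57e-06) and the PKR gene Eif2ak2 by -0.36 (adjusted p = 0.0218), while Eif2ak3 (PERK, -0.16, adjusted p = 0.0516) and Eif2ak4 (GCN2, -0.16, adjusted p = 0.051) were not called. The phosphatase catalytic subunit gene Ppp1ca rose (0.76). With shNdufa5_1 in PCM 5 of the 8 fell and 1 rose (median -0.15), where 27.1% of all tested genes fell and 25.6% rose. Eif2ak3 fell from 5.67 ± 0.573 to 3.33 ± 0.176 (-0.62, adjusted p = 1.71e-06) and Eif2ak4 rose from 6.85 ± 0.617 to 9.45 ± 0.6103 (0.41, adjusted p = 0.000114). Eif2ak1 (-0.32, adjusted p = 8.25e-05) and Ppp1r15a (-0.22, adjusted p = 2.7e-06) fell as well. Of the relay that carries mitochondrial stress to HRI, the protease gene Oma1 was -0.32 in shControl in SCM (adjusted p = 0.0257) and 0.87 with shNdufa5_1 against shControl in SCM (adjusted p = 1.01e-05), and Dele1 was called in neither (-0.01 and -0.12). Of the 8 genes for eIF2 and eIF2B subunits, 3 rose and 3 fell in shControl in SCM (median -0.02), against 31.7% and 30.2% of all tested genes. They were 0 and 7 under the FPKM sum, where 488 of 11084 tested genes rose and 7805 fell. With shNdufa5_1 in PCM 2 rose and 4 fell (median -0.18), where 25.6% and 27.1% of all tested genes did.

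The arms of the unfolded protein response that run beside PERK, through ATF6 and XBP1, had the largest median shift with shNdufa5_1 of the gene lists counted here. In PCM 10 of 11 genes fell and none rose, where 27.1% of all tested genes fell, with a median of -0.71 against -0.01 for all tested genes. In SCM 10 fell and none rose, where 31.1% of all tested genes fell, with a median of -0.91. The direction held under every scaling, the smallest being 7 fallen, 1 risen and a median of -0.49 in SCM under the FPKM sum. Of 11084 tested genes 998 fell and 6351 rose there. Hspa5, the chaperone BiP, fell from 717 ± 6.13 to 322 ± 3.41 FPKM in PCM (-1.15, adjusted p = 3.59e-14) and from 739.6 ± 13.8 to 321 ± 6.03 in SCM (-1.20). Xbp1, the factor spliced by IRE1, fell from 73.4 ± 1.19 to 23.6 ± 0.937 (-1.60) and from 68.1 ± 1.74 to 32.97 ± 1.01 (-1.02), and the chaperone gene Dnajb9 differed by -1.17 and -0.72. The cochaperone gene Sdf2l1 fell from 33.6 ± 1.17 to 10.3 ± 0.824 in PCM and from 58.1 ± 4.83 to 15.3 ± 1.5 in SCM, and Manf, a secreted stress-induced factor, from 71.4 ± 1.29 to 35.5 ± 0.154 and from 125 ± 1.14 to 39.4 ± 1.73. Dnajc3 was called in neither medium. In the libraries labelled shNdufa5_2, compared with the same shControl libraries, 8 rose and 2 fell in PCM (Sdf2l1 0.61, Hspa5 0.07), against 19.3% and 16.3% of all tested genes. In SCM 4 rose and 1 fell, against 13.9% and 20%. These counts became 1 and 4 in PCM and 10 and 0 in SCM under the FPKM sum. Of 11084 tested genes, that scaling called 139 up and 6318 down in PCM and 4750 and 184 in SCM. In shControl, SCM itself moved 7 of the 11 up and 3 down (up Manf by 0.80, down Dnajb9 at -0.57), against 31.7% and 30.2% of all tested genes. They became 1 up and 6 down under the FPKM sum, where 488 of 11084 tested genes rose and 7805 fell.

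**Figure D4:**
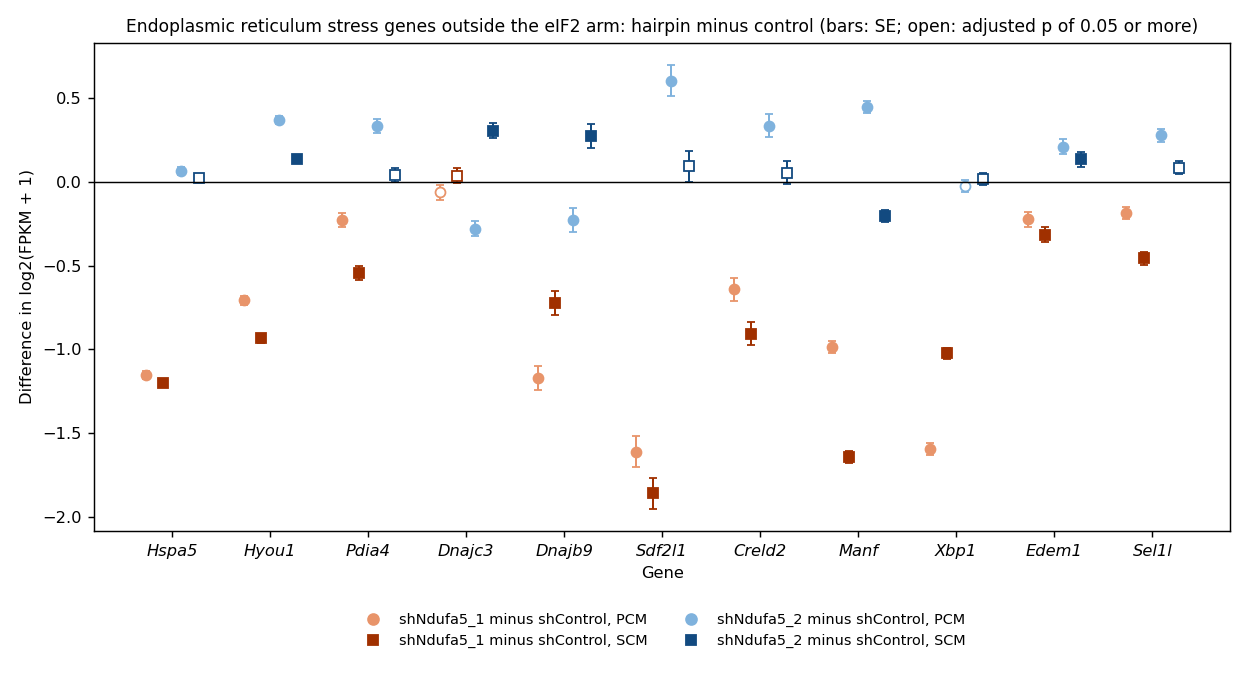
Difference in log2(FPKM + 1) of each hairpin from shControl for 11 genes of the ATF6 and XBP1 arms, in PCM (circles) and SCM (squares), with bars for the SE and open symbols where the adjusted p was 0.05 or more. With shNdufa5_1, 10 genes lay below 0 and were called in each medium, and Sdf2l1 lay at -1.61 in PCM and -1.86 in SCM.

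Genes of amino acid metabolism were counted as a separate list. Of 10 genes for amino acid and one-carbon synthesis, 8 rose and 1 fell in shControl in SCM, against 31.7% and 30.2% of all tested genes, with a median of 0.38, but the median was -0.00 under quantile normalization and -0.23 under the FPKM sum. The medians of all tested genes were -0.02 and -0.50 under these scalings. Phgdh, the first enzyme of serine synthesis, rose from 438 ± 18.5 to 849 ± 22.4 FPKM (0.95, adjusted p = 1.55e-12), Shmt2, which passes serine's carbon to folate in mitochondria, from 103 ± 2.96 to 164 ± 1.54 (0.66), Pycr1 from 14.3 ± 0.779 to 22.2 ± 1.05 (0.61) and Psph from 28.3 ± 0.474 to 42.8 ± 1.12 (0.58). With shNdufa5_1, 8 rose in SCM and 1 fell, against 22.5% and 19.8% of all tested genes. They were 6 and 1 under the FPKM sum, where 1211 of 11084 tested genes rose and 1949 fell. In the libraries labelled shNdufa5_2, 4 rose and none fell, against 11.7% and 11.1%. They were 2 and 0 under the FPKM sum, where 694 of 11084 tested genes rose and 231 fell. Of 11 tRNA synthetase genes, 7 rose and 3 fell in shControl in SCM, against the same shares of all genes, with a median of 0.34 that was -0.05 under quantile normalization and -0.26 under the FPKM sum, and among them Sars rose by 0.62 and Gars by 0.46. The 8 amino acid transporters other than Slc7a11 were split in shControl in SCM, 3 up and 3 down (median 0.05), where 61.9% of all tested genes were called. They were 0 and 8 under the FPKM sum, where 488 of 11084 tested genes rose and 7805 fell.

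The other 18 tested targets of ATF4 moved both ways. In shControl in SCM 8 rose and 5 fell (median 0.08), 13 of 18 called against 61.9% of all tested genes (31.7% up and 30.2% down). They were 0 and 13 under the FPKM sum, 4 and 7 under quantile normalization and 6 and 8 without the GC and length trend. Of all tested genes, 488 rose and 7805 fell, 2963 and 3480, and 2860 and 2721 in that order. Among these targets were Eif4ebp1, a translational brake (0.65), and Ddit4, an mTORC1 inhibitor (0.61), which rose, and Cth, of cysteine synthesis, which fell (-0.41). With shNdufa5_1 in PCM 5 rose and 7 fell (median -0.09), where 52.7% of all tested genes were called, and in SCM 6 rose and 8 fell (median 0.02), where 59.8% were. Under the FPKM sum the counts were 4 and 10 in PCM, where 1405 of 11084 tested genes rose and 3674 fell. In SCM they were 9 and 3, where 6351 rose and 998 fell. Sqstm1, the autophagy receptor p62, fell from 731 ± 3.64 to 342 ± 4.12 FPKM in PCM (-1.10, adjusted p = 1.3e-13) and from 908 ± 12.1 to 324 ± 11.2 in SCM (-1.48), while Ddit4 rose in both (0.88 and 0.67), as did Xpot, a tRNA exporter (0.55 and 0.92). Of 9 tested partners or regulators of ATF4, 4 rose and 3 fell with shNdufa5_1 in PCM (median 0.20), against 25.6% and 27.1% of all tested genes. In SCM 5 rose and 3 fell (median 0.19), against 28.7% and 31.1%. Among these partners Cebpg rose (0.51 in PCM and 0.92 in SCM) and Jun fell (-1.25 and -0.47).

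Slc7a11 is also a target of NRF2, the oxidative stress factor. A chosen list of 9 of its other targets, which is not a full set, was therefore counted. With shNdufa5_1, 6 of 9 rose and 1 fell in PCM, against 25.6% and 27.1% of all tested genes, and 7 rose and 1 fell in SCM, against 28.7% and 31.1%, with medians of 0.44 and 0.32 that stayed above 0 under every scaling. Gsr, glutathione reductase, rose from 36.9 ± 1.89 to 61.2 ± 3.35 FPKM in PCM (0.71, adjusted p = 1.3e-06) and from 35.9 ± 2.57 to 68.6 ± 1.72 in SCM (0.92), and Gclm, of glutathione synthesis, from 11.6 ± 0.222 to 17.6 ± 0.341 (0.56) and from 10.3 ± 0.576 to 16.6 ± 0.387 (0.65). The haem oxygenase gene Hmox1 was not called in PCM (-0.08, adjusted p = 0.292) and fell in SCM (-0.63, adjusted p = 2.91e-07). In the libraries labelled shNdufa5_2, 4 rose and 1 fell in PCM and none rose and 4 fell in SCM. Of all tested genes 19.3% and 16.3% rose and fell in PCM and 13.9% and 20% in SCM. The counts became 0 and 5 and 4 and 0 under the FPKM sum. Of 11084 tested genes, that scaling called 139 up and 6318 down in PCM and 4750 and 184 in SCM. Gdf15 and Sesn2 are also p53 targets, and of 12 other p53 targets 4 rose and 4 fell in shControl in SCM (median 0.02), where 61.9% of all tested genes were called. They were 0 and 11 under the FPKM sum, where 488 of 11084 tested genes rose and 7805 fell. Of these 12, 2 rose and 4 fell with shNdufa5_1 in PCM (median -0.16), where 52.7% were.

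Across the 18 libraries the members co-varied unevenly. Ddit3, Trib3, Gdf15 and Asns ran together (Trib3 with Gdf15 at Pearson r = 0.943, with Asns at 0.937 and with Ddit3 at 0.894), and Atf5, Sesn2 and Slc7a11 ran together (Atf5 with Slc7a11 at 0.808). Ddit3 and Slc7a11 ran opposite (-0.942), as did Atf4 and Slc7a11 (-0.868). Chac1 and Atf3 correlated with each other at 0.59 and with Atf4 at 0.53 and 0.43. With group means removed, Trib3 stood at 0.41 with Gdf15, -0.14 with Asns and -0.18 with Ddit3, and Ddit3 with Slc7a11 at -0.51. The libraries share 6 groups, so the correlations over all 18 libraries describe differences between groups and carry no test. They were taken on the main scale only. By the same measure the genes most alike were Hmga1 for Trib3 (0.994), Ppm1j for Asns (0.984), Atp6v1g1 for Ddit3 (0.98), Mfap3l for Slc7a11 (0.978), Ywhaq for Atf4 (0.969), Prpf8 for Gdf15 (0.969), Rhob for Atf3 (0.956), Smarca4 for Atf5 (0.955), Snapin for Sesn2 (0.929) and Dcaf11 for Chac1 (0.872), and no member was the nearest gene of another.

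**Figure D5:**
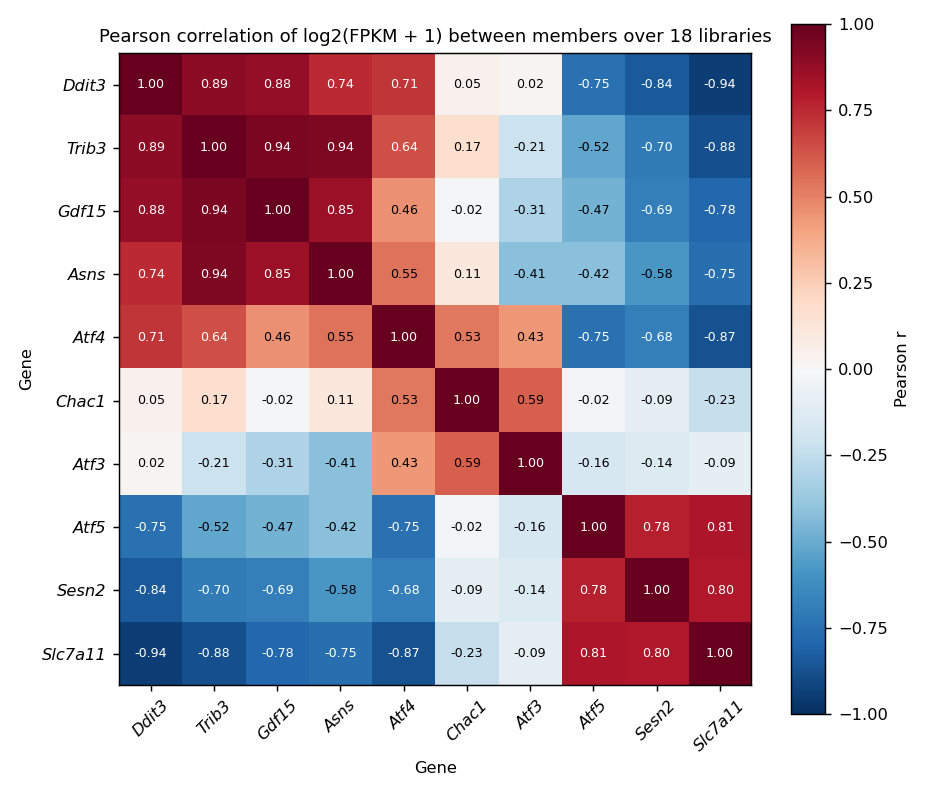
Pearson correlation of log2(FPKM + 1) between members over the 18 libraries, on a colour scale from -1 to 1. Ddit3, Trib3, Gdf15 and Asns form a block with r of 0.74 or more, and Slc7a11 is negative with each of them.

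Counting limits the reading of some members. Ddit3 overlaps Mars on the opposite strand, Atf5 overlaps Il4i1 and Nup62 on the opposite strand, and Atf3 overlaps Gm24748 on the opposite strand. On the member's own strand, Sesn2 overlaps the annotated transcript Gm12981, and the second Ddit3 entry, listed at 0, lies within Ddit3. Slc7a11 overlaps annotated genes on both strands. Whether fragments were counted by strand, and how fragments shared by overlapping genes were assigned, is not given in the sources used here. Reads of such neighbours therefore cannot be told apart from those of the member. In GRCm38 with the GENCODE M21 annotation, Atf4 (ENSMUSG00000042406) lies on chromosome 15 from 80255184 to 80257541 on the plus strand, Ddit3 (ENSMUSG00000025408) on chromosome 10 from 127290774 to 127296288 on the plus strand, Gdf15 (ENSMUSG00000038508) on chromosome 8 from 70629393 to 70632456 on the minus strand, Trib3 (ENSMUSG00000032715) on chromosome 2 from 152337422 to 152344032 on the minus strand, and Asns (ENSMUSG00000029752) on chromosome 6 from 7675169 to 7693254 on the minus strand. Slc7a11 (ENSMUSG00000027737) spans 49892526 to 50443614 on chromosome 3, minus strand, with 13922 bp of exons, so that its low FPKM still rested on 746 to 3009 fragments per library.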

How the data were processed

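RNA from 18 libraries was analysed from a table of FPKM per gene that the authors deposited. The submitters' processing notes name STAR 2.6.1, DESeq2 and the mm10 build (GRCm38). The step that gave the FPKM, its denominator and any strand setting were not given in the sources used here. Steps between low values gave whole fragments for 99.5 to 99.8% of values of up to 20 fragments (tolerance 0.1), hence 13.8 to 38.9 M fragments per library; counting error is set by this depth.

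Values were tested as log2(FPKM + 1) with limma 3.58.1 in R 4.3.3, with 6 group means, empirical Bayes moderation with a trend and no replicate block, over 11084 genes with a mean of at least 1 FPKM. P-values are Benjamini-Hochberg adjusted over these genes, and a gene was called below 0.05. All differences are on this log2 scale, which understates changes of low genes. The fit was tested on simulated data. Alternatives were a pseudocount of 0.1, no filter, other scalings, quantile normalization, a removed GC and length trend (natural splines), a replicate block, only the groups compared and each library left out. Scaling by recovered fragments and the comparison of the 2 hairpins were added after seeing the data.

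The members and gene lists were chosen with earlier results of these data known. All 10 members are described. The lists are described in the comparisons named, mostly by counts, a median and up to 4 called genes with the largest absolute difference. Other list genes named (among them the eIF2 kinases, Hmox1, Dnajc3, Cth and genes repeated from another comparison) were chosen after their values were seen. Promoters and annotation are from RefSeq and GENCODE M21.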

Additional observations from a re-analysis of the deposited data

Results flagged for a closer look

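In the main fit these members were called as responding to SCM differently in a hairpin population and in shControl. The test was limma on the difference of responses in log2(FPKM + 1), with Benjamini-Hochberg adjusted p in parentheses. With shNdufa5_1 the response of Gdf15 was -1.31 (7.88e-05) relative to that of shControl, of Ddit3 -0.74 (2.95e-06), of Trib3 -0.45 (6.86e-06) and of Atf5 -0.31 (0.0213), while that of Atf4 was 0.22 (0.0108) and of Chac1 0.28 (0.0156). In the libraries labelled shNdufa5_2, Gdf15 was -0.72 (0.00501), Trib3 -0.55 (5.22e-07), Ddit3 -0.42 (0.000295), Asns -0.35 (4.79e-05) and Slc7a11 0.56 (0.000251). Of these differences, only Gdf15, Atf4 and Chac1 with shNdufa5_1 were called the same way in all 21 other settings. Atf5 with shNdufa5_1 was called so in 12 of 21. Under the FPKM sum, Atf5 and both Trib3 differences turned positive, as did Ddit3 and Asns in the libraries labelled shNdufa5_2. Asns there also turned under quantile normalization (0.18). Both sets use the same 6 shControl libraries. In shControl, Gdf15 and Ddit3 rose and every SCM library lay above every PCM library, whereas with shNdufa5_1 the Gdf15 libraries overlapped between the media and Ddit3 fell.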

How the results depend on the processing

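Pseudocount 0.1 changed none of the 90 member differences in direction or call, and dropping the filter changed 3, fitting only the groups compared 4, and the 660 fits without 1 library 27, with no sign turned. The number of members called without 1 library was 7 to 7 for SCM in shControl, 5 to 6 with shNdufa5_1 and 5 to 7 in the libraries labelled shNdufa5_2. It was 9 to 10 for shNdufa5_1 against shControl in PCM and 9 to 9 in SCM, 7 to 8 and 5 to 6 for the libraries labelled shNdufa5_2, and 5 to 7 for either difference of responses. The share of all tested genes called without 1 library is not given here. In the main fit that share ran from 22.8% to 61.9% over these comparisons, so steady counts are not a trait of the members. Under the FPKM sum the count called was 2 for SCM against PCM in the libraries labelled shNdufa5_2, and against shControl 5 in PCM and 2 in SCM for those libraries, and under quantile normalization that last count was 3. The numbers of all tested genes called under these scalings are given with each comparison above. Sign changes are given for differences called before or after the change, and others also turned. Under scaling by the FPKM sum the differences that so changed sign were, for SCM against PCM in shControl, Atf5 -0.29, Ddit3 -0.088, Sesn2 -0.52 and Asns -0.019. For the libraries labelled shNdufa5_2 against shControl in PCM they were Ddit3 -0.0037, Trib3 -0.074 and Asns -0.15. For shNdufa5_1 against shControl in SCM they were Atf3 0.073, Atf4 0.12 and Chac1 0.31. For the libraries labelled shNdufa5_2 against shControl in SCM they were Atf4 0.16, Ddit3 0.23, Trib3 0.026 and Asns 0.14. For the response relative to shControl with shNdufa5_1 they were Atf5 0.24, Trib3 0.11 and Asns 0.45. For the response relative to shControl in the libraries labelled shNdufa5_2 they were Atf4 0.53, Atf5 0.44, Ddit3 0.23, Trib3 0.10, Chac1 0.45 and Asns 0.30. Under quantile normalization the differences that so changed sign were, for SCM against PCM in shControl, Asns -0.12. For SCM against PCM with shNdufa5_1 they were Atf4 -0.11. For the libraries labelled shNdufa5_2 against shControl in PCM they were Asns -0.10. For shNdufa5_1 against shControl in SCM they were Atf4 0.20, Chac1 0.16 and Asns 0.14. For the libraries labelled shNdufa5_2 against shControl in SCM they were Atf4 0.10 and Asns 0.082. For the response relative to shControl with shNdufa5_1 they were Asns 0.43. For the response relative to shControl in the libraries labelled shNdufa5_2 they were Atf4 0.44 and Asns 0.18. With the GC and length trend removed, with or without the replicate block, the differences that so changed sign were, for SCM against PCM in shControl, Atf5 -0.13 and Sesn2 -0.24. For SCM against PCM with shNdufa5_1 they were Atf4 -0.047, Atf5 -0.21 and Chac1 -0.014. For shNdufa5_1 against shControl in SCM they were Chac1 0.25. For the libraries labelled shNdufa5_2 against shControl in SCM they were Atf4 0.025. For the response relative to shControl in the libraries labelled shNdufa5_2 they were Atf4 0.18. Recovered fragment totals ended 7 calls, made 8 and turned the sign of no difference that was called before or after. The cause of these changes was not tested. The replicate block changed none of the 90 calls. Same-numbered libraries did not deviate together by this measure (r of -0.085 to 0.061, with 0 of 3 pairs over 0.1 in each comparison). In shControl, however, replicate 2 was the deepest library of each medium (33.8 M fragments in PCM and 38.9 M in SCM). Whether the numbers mark libraries prepared together was not tested. Depth limits Gdf15, Sesn2 and Slc7a11 most, and 3 libraries per group limit all of them.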
